A study of Arabidopsis thaliana with 8 samples.

Results

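UDP-glycosyltransferases (UGTs) are enzymes that move a sugar, most often glucose, from a UDP-sugar onto small acceptor molecules. In plants their acceptors include hormones, flavonoids, phenylpropanoids and foreign compounds, and the conjugates are usually more soluble, often less active, and suited to storage in the vacuole. Genes of the family are named UGT, a number, a letter and a gene number, so that UGT76E1 and UGT76E2 are close relatives. In this report genes that share the first number are called a subfamily, whatever their letter. The members described here were all genes of the ATH1 array with a probe set annotated to exactly 1 gene and a symbol of UGT followed by a digit, leaving out the glucosinolate enzyme gene UGT74B1. This gave 46 genes, each with a single probe set, out of 13350 genes with a probe set of their own. All 22746 probe sets of the array were tested, of which 13513 were annotated to 1 gene. The TAIR10.1 gene table of RefSeq lists 58 genes with such a symbol. No nucleotide or protein sequence of the members is shown, because the sources used here hold none.

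RNA had been extracted from Arabidopsis thaliana leaves (ecotype Col-0, plants 5 weeks old). The plants were wild type or dTLec1-1, a SALK insertion line referred to below as dTLec. Rosette leaves had been wounded with tweezers across the midvein, and control and systemic leaves were taken 2 h after wounding. Systemic leaves are, in the usual sense of the term, the unwounded leaves of a wounded plant. The 4 groups were wild-type control, wild-type systemic, dTLec control and dTLec systemic leaves, with 2 arrays each. The mutant is represented by a single insertion line. No label gives the gene that carries the insertion, so its transcript was not checked, and no label says whether control leaves came from separate unwounded plants or whether replicates came from separate plants. The p-values therefore rest on a spread between arrays that may be only technical.

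Each array gives 1 value per probe set on the log2 scale, and a difference of 1 is a 2-fold change. Errors written after ± are limma's standard errors of a difference, with n = 2 arrays on each side unless another n is given. Array medians lay between 5.82 and 5.87, and replicate arrays correlated across probe sets with r between 0.992 and 0.996. The leaf markers measured by name, RCA (Rubisco activase) and LHCB4.2 (a light-harvesting protein), had group means between 13.59 and 13.87, while PYK10, a root beta-glucosidase gene, lay between 4.27 and 4.29 in every group. The guard-cell marker FMA had group means between 6.21 and 6.62, highest in wild-type systemic leaves (0.41 ± 0.14 above control leaves, limma adjusted p 0.109), and whether it bears on the UGT values was not tested. The symbol FDH matched AT5G14780, formate dehydrogenase, and not the epidermal gene intended. Fewer cells of a type and less RNA per cell cannot be told apart in such samples. At all 22746 probe sets the replicate 1 and replicate 2 arrays had the same mean over the 4 groups within 1e-04, so a difference between replicate numbers had already been taken out of the deposited values. A model without this term counts 4 residual degrees of freedom in place of 3, and the call under a model with the replicate number as a block is therefore given beside its calls.

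The first comparison asked which UGT genes differed between systemic and control leaves of the wild type. The genes that rose belonged to 4 subfamilies, with 4 genes of subfamily 76 (UGT76E12, UGT76E11, UGT76E1 and UGT76C2) and 1 each of subfamilies 84, 71 and 72 (UGT84A3, UGT71B1 and UGT72B3). The increases ran from 1.58-fold for UGT76E1 to 4.37-fold for UGT76E12. UGT85A4 and UGT85A5 fell 1.72-fold and 1.62-fold. In all, 9 of 46 members (19.6%) passed an adjusted p of 0.05 in limma, against 11.9% of all probe sets. The 7 that rose made up 15.2% of members, against 5.91% of all probe sets, and the 2 that fell 4.35%, against 6.03%. With the replicate block 7 of 46 passed (15.2%), all of them among the 9, against 7.02% of all probe sets. At least 2-fold higher were 5 members (10.9%), against 2.25% of all probe sets. The control and systemic arrays did not overlap at 30 of 46 members (65.2%), against 51.9% of all probe sets.

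The UGT76E genes were the largest group among the increases. UGT76E11 (AT3G46670), whose enzyme glucosylates flavonols in vitro, gave 5.22 and 4.75 on the wild-type control arrays, 6.45 and 7.25 on the wild-type systemic arrays, 5.65 and 5.18 on the dTLec control arrays, and 5.91 and 6.06 on the dTLec systemic arrays (log2, replicates 1 and 2). In both genotypes the systemic arrays lay above the control arrays, and the wild-type systemic arrays were the highest of all. The wild-type increase was 1.87 ± 0.29 on the log2 scale (adjusted p 0.00833 in limma, or 0.0127 with the block). UGT76E12 (AT3G46660) gave 4.461 and 3.499 in wild-type control leaves, 5.66 and 6.56 in wild-type systemic leaves, 4.26 and 3.33 in dTLec control leaves, and 4.59 and 5.58 in dTLec systemic leaves. Its replicates were farther apart than those of UGT76E11, although no control array reached a systemic array of the same genotype. The replicate 2 control values of UGT76E12, 3.499 and 3.33, lay near 3.24, the lowest value on any array. The size of its increase thus rests partly on values near the lower end of the scale. The wild-type increase of UGT76E12 was 2.13 ± 0.51, and limma gave an adjusted p of 0.0377, and of 0.0514 with the block. UGT76E1 (AT5G59580), whose enzyme forms the glucoside of hydroxylated jasmonate, was dim, with 4.46 and 4.17 in wild-type control leaves, 4.92 and 5.03 in wild-type systemic leaves, 4.35 and 4.27 in dTLec control leaves, and 4.24 and 4.51 in dTLec systemic leaves. Both wild-type systemic arrays stood above the other 6 arrays, which overlapped with each other, and the increase was 0.66 ± 0.13 (adjusted p 0.0189 in limma, or 0.0402 with the block).

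UGT76C2 (AT5G05860), whose enzyme glucosylates cytokinins on nitrogen, gave 8.06 and 8.27 in wild-type control leaves, 8.82 and 8.94 in wild-type systemic leaves, 8.30 and 8.21 in dTLec control leaves, and 8.45 and 8.22 in dTLec systemic leaves. The wild-type systemic arrays were again the highest, and the increase was 0.71 ± 0.11 (adjusted p 0.00917 in limma, or 0.0227 with the block). The remaining members of subfamily 76 had wild-type responses between −0.01 and 0.21 and did not pass. They were UGT76C1, the second cytokinin N-glucosyltransferase gene (0.03 ± 0.18), UGT76B1, whose enzyme glucosylates isoleucic acid and salicylate (0.12 ± 0.08), UGT76D1, which acts on dihydroxybenzoates (−0.01 ± 0.13), and UGT76E2 (0.21 ± 0.09). UGT76B1 lay between 3.70 and 3.99 on all 8 arrays, near the lower end of the scale of 3.24 to 14.28.

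UGT84A3 (AT4G15490) encodes an enzyme that forms glucose esters of hydroxycinnamates. It gave 5.98 and 5.46 in wild-type control leaves, 7.36 and 8.05 in wild-type systemic leaves, 5.93 and 5.72 in dTLec control leaves, and 6.31 and 6.35 in dTLec systemic leaves. The wild-type systemic arrays lay more than 1 log2 unit above all the others, and the dTLec systemic arrays lay above every control array by a smaller step. The wild-type increase was 1.99 ± 0.25, or 3.96-fold (adjusted p 0.00401 in limma, or 0.00657 with the block). UGT71B1 (AT3G21750) gave 6.08 and 6.05 in wild-type control leaves, 7.20 and 7.64 in wild-type systemic leaves, 6.30 and 5.89 in dTLec control leaves, and 6.50 on both dTLec systemic arrays. Its wild-type increase was 1.36 ± 0.17, or 2.56-fold (adjusted p 0.00431 in limma, or 0.00803 with the block). The order of the groups was thus the same as for UGT84A3.

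The estimated responses of UGT72B3 and UGT87A2 were of similar size in both genotypes, with a wide error for UGT87A2. UGT72B3 (AT1G01420), a relative of the gene of the xenobiotic-conjugating enzyme UGT72B1, gave 5.80 and 5.55 in wild-type control leaves, 6.37 on both wild-type systemic arrays, 5.62 and 5.41 in dTLec control leaves, and 5.94 and 6.40 in dTLec systemic leaves. All 4 systemic arrays lay above all 4 control arrays, and the wild-type increase was 0.69 ± 0.16 (adjusted p 0.0369 in limma, or 0.0647 with the block). UGT87A2 (AT2G30140), a gene with a known role in flowering time, gave 6.80 and 5.87 in wild-type control leaves, 7.75 and 8.28 in wild-type systemic leaves, 6.23 and 5.52 in dTLec control leaves, and 6.94 and 8.04 in dTLec systemic leaves. Here too every systemic array lay above every control array, but the replicates of a group were far apart, and the wild-type difference of 1.68 ± 0.45 had a limma adjusted p of 0.0581, and of 0.0784 with the block. The 95% interval of that difference ran from 0.61 to 2.75, and it passed in 7 of the alternatives, with adjusted p between 0.0262 and 0.0485.

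The 2 genes that fell in the wild type both belong to subfamily 85, the subfamily of the zeatin glucosyltransferase UGT85A1. UGT85A4 (AT1G78270) gave 8.36 and 8.44 in wild-type control leaves, 7.71 and 7.53 in wild-type systemic leaves, 7.97 and 8.20 in dTLec control leaves, and 7.82 and 7.68 in dTLec systemic leaves. UGT85A5 (AT1G22370) gave 6.42 and 6.04 in wild-type control leaves, 5.46 and 5.61 in wild-type systemic leaves, 6.18 and 6.40 in dTLec control leaves, and 5.986 and 5.995 in dTLec systemic leaves. In each gene the systemic arrays lay below the control arrays in both genotypes. The wild-type log2 changes were −0.78 ± 0.11 for UGT85A4 and −0.69 ± 0.14 for UGT85A5, with limma adjusted p of 0.00627 and 0.0206, and of 0.0157 and 0.0416 with the block.

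Single arrays decided part of the wild-type calls. Wild-type calls over all probe sets also became fewer with any 1 array left out, so such losses are not particular to the family. UGT84A3, UGT71B1 and UGT76E11 passed with any 1 of the 8 arrays left out, with largest adjusted p of 0.0204, 0.026 and 0.0375 (limma). They were the 3 members that passed when wild-type systemic replicate 2 was left out, and then the adjusted p was 0.0504 for UGT85A4, 0.0709 for UGT76C2, 0.0762 for UGT85A5, 0.118 for UGT76E1, 0.155 for UGT72B3 and 0.196 for UGT76E12. Without wild-type systemic replicate 1, 5 members passed, and the adjusted p was 0.0579 for UGT76E12, 0.0636 for UGT76E1, 0.11 for UGT85A5 and 0.137 for UGT72B3. Without wild-type control replicate 2, 6 members passed, and the adjusted p was 0.0674 for UGT76E1, 0.116 for UGT76E12 and 0.129 for UGT72B3. UGT72B3 had 0.0507 without either dTLec control array. Leaving out wild-type control replicate 1 gave 11 members, adding UGT87A2 (2.14, adjusted p 0.0262) and UGT84A4 (−0.69, adjusted p 0.0289, limma). UGT87A2 also had 0.0312 without either dTLec systemic array. All 9 genes kept their direction in each of these fits.

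**Figure D1:**
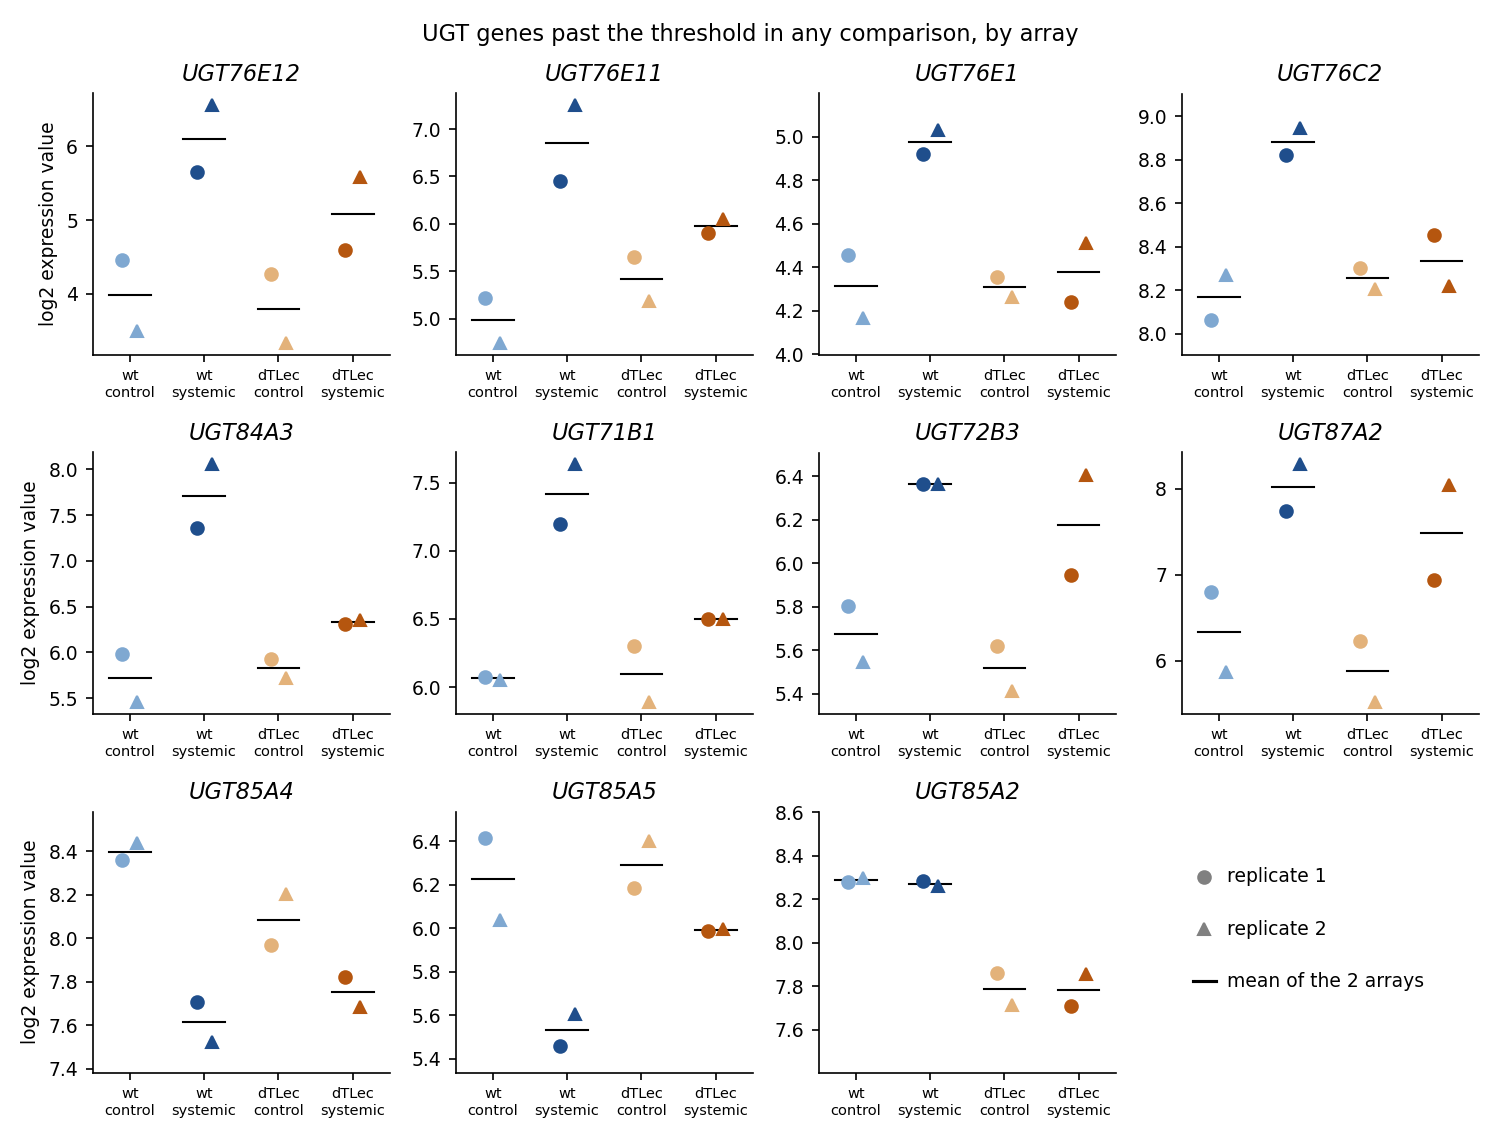
Log2 expression values on each of the 8 arrays for the 11 UGT genes that passed the threshold in at least 1 of the 7 comparisons, by genotype and leaf type. Circles are replicate 1, triangles replicate 2 and black lines the mean of 2 arrays, and each panel has its own axis. UGT84A3 stands highest on the wild-type systemic arrays (7.36 and 8.05), while UGT85A2 separates the genotypes in both leaf types.

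The same comparison in dTLec asked whether the UGT genes changed in systemic leaves of the mutant. No member passed (0 of 46, limma, against 0.668% of all probe sets), and none passed with the replicate block (against 0.0703%). At an unadjusted p under 0.05 there were 10 of 46 members (21.7%), against 16.5% of all probe sets. The smallest adjusted p was 0.127, at UGT72B3, with a difference of 0.66 ± 0.16 (limma). The highest values were 1.61 ± 0.45 for UGT87A2 (adjusted p 0.155) and 1.29 ± 0.51 for UGT76E12 (adjusted p 0.268), the 2 members (4.35%) that were at least 2-fold higher, against 0.901% of all probe sets. The lowest were −0.44 ± 0.18 for UGT78D1, encoding a flavonol rhamnosyltransferase, −0.33 ± 0.11 for UGT85A4 and −0.30 ± 0.10 for UGT71C4, with adjusted p between 0.19 and 0.285 (limma). The control and systemic arrays did not overlap at 31 of 46 members (67.4%), against 47.1% of all probe sets. Fits with 1 array left out could add little to this, because in most of them no probe set of the whole array passed.

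Averaged over both genotypes, 10 members passed in the comparison of systemic with control leaves, against 14.1% of all probe sets (21.7% of members, limma). The 8 that rose were 17.4% of members, against 6.5% of all probe sets, and the 2 that fell 4.35%, against 7.61%. They were the 9 of the wild type and UGT87A2, which rose by 1.65 ± 0.32 on the log2 scale, or 3.13-fold (n = 4 arrays of each leaf type, adjusted p 0.0168, or 0.024 with the block). The mean increases ran from 0.37 ± 0.09 for UGT76E1 to 1.71 ± 0.36 for UGT76E12, and the mean changes of the lowered genes were −0.50 ± 0.10 for UGT85A5 and −0.56 ± 0.08 for UGT85A4. With the replicate block 9 of the 10 passed (19.6% of members, against 8.19% of all probe sets), and UGT76E1 had an adjusted p of 0.0778. The count was 5 without dTLec control replicate 2, where the adjusted p was 0.0587 for UGT87A2, 0.0631 for UGT85A5, 0.0689 for UGT76E12, 0.0715 for UGT76C2 and 0.124 for UGT76E1. It was 6 without wild-type systemic replicate 2, where it was 0.0613 for UGT87A2, 0.069 for UGT76E12, 0.0717 for UGT76C2 and 0.126 for UGT76E1. UGT76E1 also did not pass without wild-type systemic replicate 1 (0.0802), dTLec control replicate 1 (0.0785), wild-type control replicate 2 (0.0806) or dTLec systemic replicate 2 (0.11). UGT76E12 had 0.0565 and UGT85A5 0.0508 without dTLec systemic replicate 2, and UGT85A5 had 0.0597 without wild-type systemic replicate 1 (limma). The members gained, 1 in each case, were UGT76B1 with a trended and robust prior (0.17, adjusted p 0.0258), UGT84A4 without wild-type control replicate 1 (−0.48, adjusted p 0.0165), UGT80B1, a sterol glucosyltransferase gene, without wild-type control replicate 2 (−0.29, 0.0379), and UGT71C4 without dTLec systemic replicate 1 (−0.29, 0.0494).

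Whether the response differed between the genotypes was tested directly as the difference of both responses. No member passed (0 of 46, limma, against 0.0044% of all probe sets, and 8 of 46 at an unadjusted p under 0.05, or 17.4%, against 11.2%). The widest differences, as dTLec minus wild-type response, were −1.48 ± 0.35 for UGT84A3, −1.30 ± 0.40 for UGT76E11 and −0.95 ± 0.24 for UGT71B1, with adjusted p of 0.22, 0.317 and 0.252 (limma). UGT76C2 had −0.63 ± 0.16 (0.251) and UGT76E1 −0.60 ± 0.18 (0.313). The 95% intervals, which cover a single gene and not the whole family, ran from −2.30 to −0.66 for UGT84A3 and from −2.26 to −0.35 for UGT76E11. For UGT72B3 and UGT87A2 the difference was −0.03 ± 0.23 and −0.06 ± 0.64. The 95% interval for UGT87A2 ran from −1.575 to 1.448 and thus holds the −1.48 of UGT84A3. The 95% interval for UGT72B3 ran from −0.58 to 0.51, against a wild-type response of 0.69. A response that is equal in both genotypes is therefore not shown for either gene. At the other end stood UGT74D1, an auxin glucosyltransferase gene (0.49 ± 0.21), UGT85A4 (0.45 ± 0.16) and UGT85A5 (0.39 ± 0.20), with adjusted p between 0.361 and 0.508. Responses of opposite sign with no overlap between leaf types in either genotype were seen at 4 of 46 members (8.7%), against 5.6% of all probe sets. In each of the 10 members past the threshold on the mean response, the dTLec response had the same sign as the wild-type response and was smaller in size. The same held in size for 82.3% of the 3209 probe sets past that threshold, so the family followed most of the array in this. The 10 members were chosen by the mean of both responses, which favours a shared sign. That sign is no separate support, and its share over all probe sets was not counted.

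**Figure D2:**
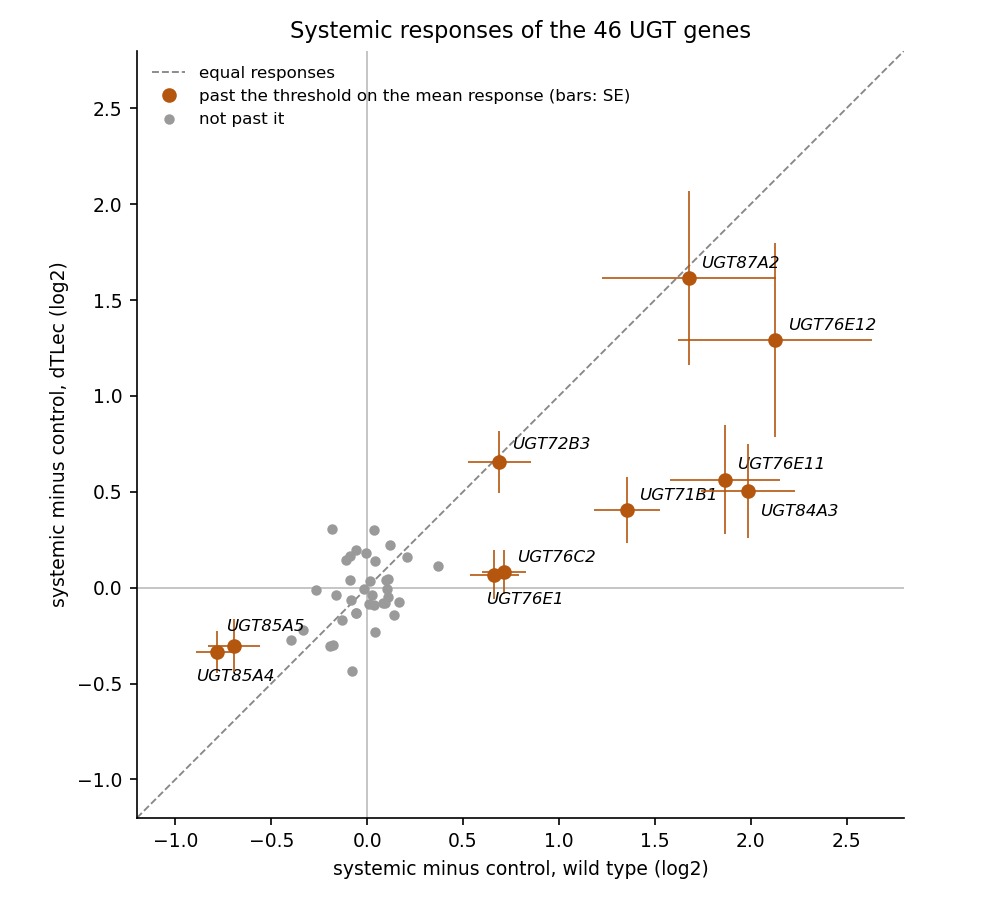
Systemic minus control difference (log2) in the wild type on the horizontal axis and in dTLec on the vertical axis for all 46 UGT genes. Orange points with SE bars are the 10 genes past the threshold on the mean response, grey points the others, and the dashed line marks equal responses. UGT72B3 and UGT87A2 lie near the line, and UGT84A3 (1.99 and 0.51) and UGT76E11 (1.87 and 0.56) lie far below it.

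The responses also differed between replicate numbers. For UGT76E12 the systemic minus control difference was 1.20 between the replicate 1 arrays and 3.06 between the replicate 2 arrays of the wild type, and 0.33 and 2.25 in dTLec. Its replicate 2 control values lay near the lower end of the scale. For UGT87A2 it was 0.94 and 2.41 in the wild type and 0.71 and 2.52 in dTLec, and for UGT84A3 1.38 and 2.59 in the wild type and 0.38 and 0.63 in dTLec. Of the 8 members raised on the mean response, 7 had the larger value in replicate 2 in each genotype, the exception being UGT76C2 in both. Over all 1479 probe sets raised on the mean response, 75.7% had the larger value in replicate 2 in the wild type and 79.7% in dTLec. The within-number difference was above 0 in all 4 cases for 7 of the 8 raised members, and UGT76E1 had −0.11 in dTLec replicate 1. Both lowered members were below 0 in all 4 cases. The members had been chosen by their mean response, which is the mean of the same 4 differences. Their shared sign is therefore no separate support, and its share over all probe sets past the threshold was not counted. The labels do not say what a replicate number shares, so these values pair arrays by number alone.

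**Figure D3:**
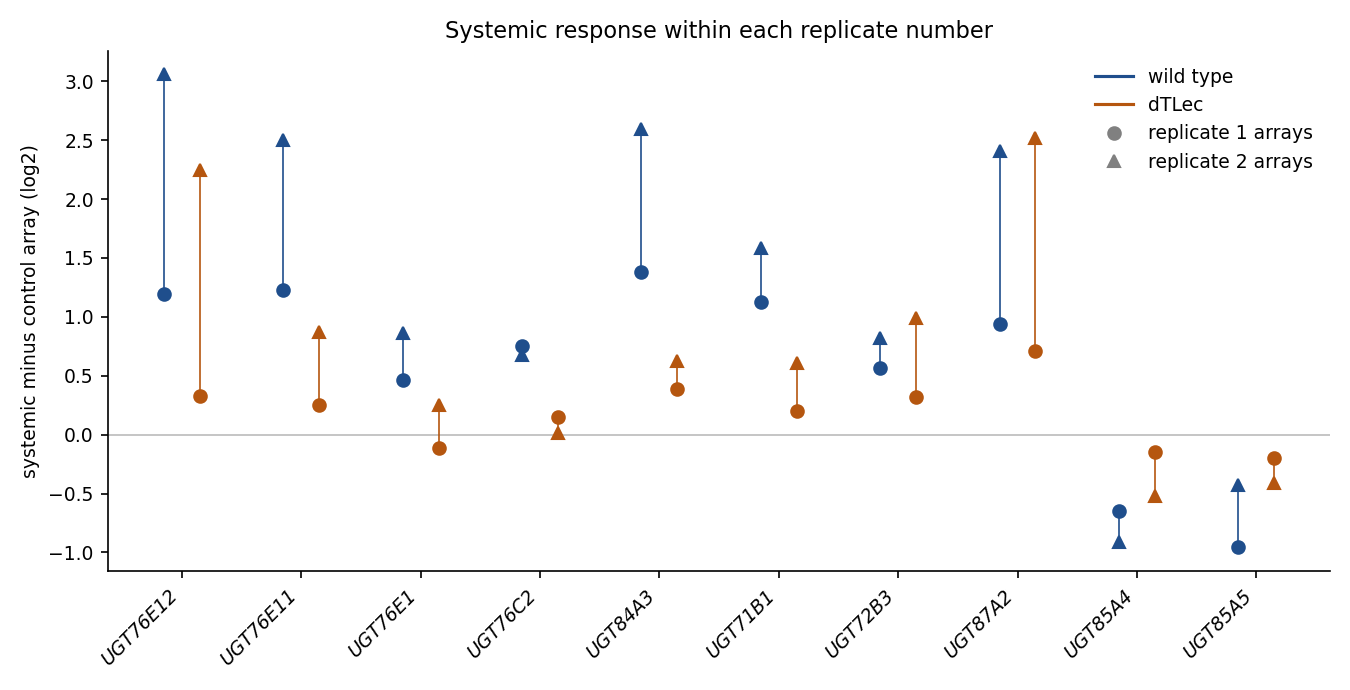
Systemic minus control difference (log2) within each replicate number for the 10 UGT genes past the threshold on the mean response, blue for the wild type and orange for dTLec. Circles are replicate 1 and triangles replicate 2, joined by a line. The replicate 2 value is the larger one for 7 of the 8 raised genes in each genotype, and the gap is widest for UGT76E12 and UGT87A2.

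By subfamily number, the genes that rose in the wild type lay in 4 of the 11 subfamilies measured. The median wild-type response over all 46 members was 0.03, against −0.02 over all probe sets, and the median size regardless of sign was 0.12 for both. Subfamily 76 had a median of 0.44 over its 8 members, with 7 above 0 and 4 that rose. Over all probe sets, 10106 of 22746 were above 0, 5.91% rose and 6.03% fell. With the replicate block UGT76E12, and UGT72B3 of subfamily 72, did not pass (adjusted p 0.0514 and 0.0647 in limma). Subfamily 71 had a median of 0.09 over 9 members, with UGT71B1 the member that rose, and subfamily 84 had 0.04 over 5 members, with UGT84A3 the member that rose. Of the 5 genes of subfamily 85, 2 fell, and of the 4 genes of subfamily 72, 1 rose. None of the 7 genes of subfamily 73, the 3 of subfamily 78 or the 2 of subfamily 74 passed, and their medians were −0.09, −0.08 and −0.05. Among these 3 subfamilies the response of largest size was −0.33 for UGT73B1 in the wild type and −0.44 for UGT78D1 in dTLec. In dTLec the median was 0.17 for subfamily 76 and between −0.15 and 0.11 for the other subfamilies of 2 or more genes. No test of a subfamily was made.

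**Figure D4:**
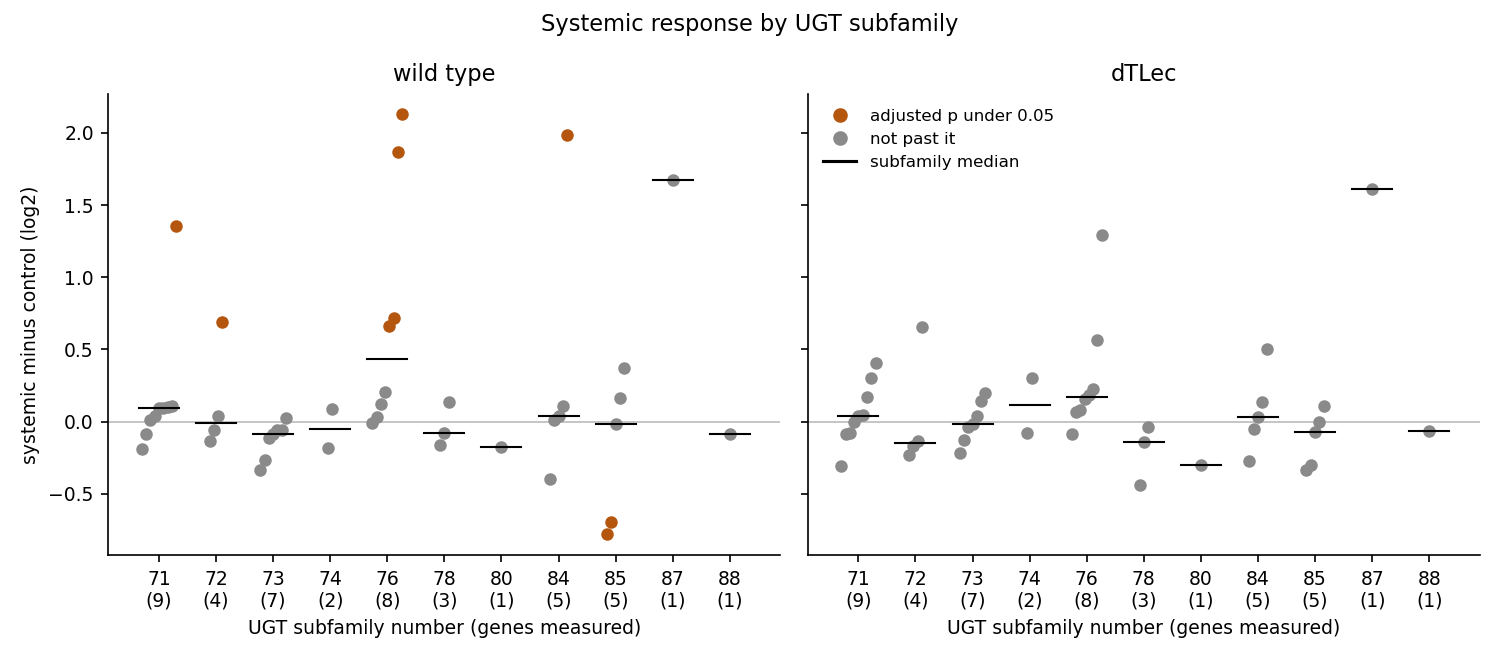
Systemic minus control difference (log2) of each of the 46 UGT genes by subfamily number, in the wild type on the left and in dTLec on the right, with the number of genes in brackets. Orange points passed an adjusted p of 0.05 in that genotype, grey points did not, and black lines are subfamily medians. The 4 genes of subfamily 76 that rose in the wild type lie between 0.66 and 2.13, and no point is orange in dTLec.

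Many UGT genes lie next to relatives on the chromosome, and in 5 of 13 runs of neighbours a gene that passed in the wild type lay beside one that did not. In the order of the gene table, 31 of the 46 members fell into these 13 runs, with at most 5 other protein-coding genes between them. In 7 runs no member passed, and the range of wild-type responses within a run was 0.05 to 0.30. In the run UGT84A1, UGT84A3 and UGT84A4 on chromosome 4, with no other gene between them, the wild-type responses were 0.04 ± 0.07, 1.99 ± 0.25 and −0.40 ± 0.19, although all 3 enzymes belong to the group that esterifies hydroxycinnamates. UGT76C2 and UGT76C1, neighbours on chromosome 5, had 0.71 and 0.03, and UGT76E1 and UGT76E2, also neighbours there, had 0.66 and 0.21. On chromosome 3, UGT71B1 had 1.36, while UGT71B6, an abscisate glucosyltransferase gene, had 0.04 and UGT71B8 0.10. In 1 run, UGT76E12 and UGT76E11, with 1 gene between them on chromosome 3, both members rose. In the run UGT85A7, UGT85A2, UGT85A5 and UGT85A3 on chromosome 1 the wild-type responses were 0.37, −0.02, −0.69 and 0.17. Related genes can share probe sequence, and whether these probe sets cross-hybridise was not tested. None of the 46 probe set names carries the suffix that marks shared probes.

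**Figure D5:**
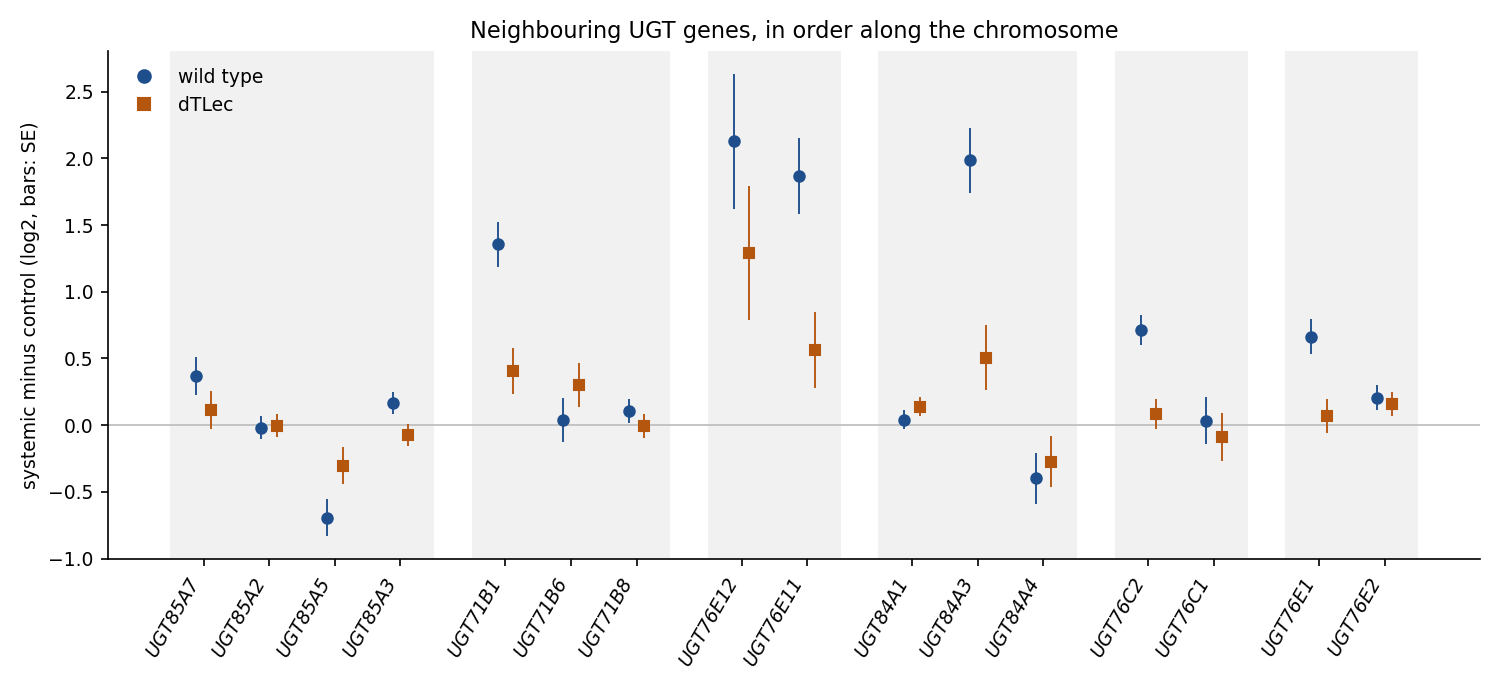
Systemic minus control difference (log2, bars are SE) of UGT genes in the 6 runs of neighbouring genes that hold a gene past the threshold in the wild type, in order along each chromosome. Blue circles are the wild type and orange squares dTLec, and grey bands mark the runs. UGT84A3 (1.99 in the wild type) lies between UGT84A1 (0.04) and UGT84A4 (−0.40).

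Between the genotypes, control leaves were compared first. The labels do not say whether these leaves were free of any response to wounding. No member passed (0 of 46, limma, against 0% of all probe sets, with 5 members or 10.9% at an unadjusted p under 0.05, against 9.25% of all probe sets) and none differed 2-fold, against 0.114% of all probe sets. The members ran from −0.50 ± 0.09 for UGT85A2 (adjusted p 0.194) through −0.46 ± 0.45 for UGT87A2 and −0.37 ± 0.10 for UGT73B5 to 0.25 ± 0.07 for UGT74F1, a salicylate glucosyltransferase gene, 0.29 ± 0.17 for UGT73B1 and 0.43 ± 0.29 for UGT76E11 (dTLec minus wild type, limma).

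In systemic leaves 5 of 46 members (10.9%) passed, all lower in dTLec, against 3.27% of all probe sets that were lower and 5.53% in either direction (limma). These were UGT84A3 (−1.37 ± 0.25, adjusted p 0.0302), UGT71B1 (−0.92 ± 0.17, 0.0335), UGT76E1 (−0.60 ± 0.13, 0.0469), UGT76C2 (−0.55 ± 0.11, 0.0424) and UGT85A2 (−0.49 ± 0.09, 0.0285). The first 4 are also genes that rose in the wild type, a comparison that shares its systemic arrays with this one. With the replicate block none of the 5 passed, with adjusted p between 0.062 for UGT84A3 and 0.108 for UGT76E1, while 0.936% of all probe sets did. UGT76E12 (−1.02 ± 0.51, adjusted p 0.28) and UGT85A5, the highest member (0.46 ± 0.14, 0.107), did not pass. UGT85A5 had 0.0452 without either wild-type control array and 0.0482 when only the 4 systemic arrays were fitted. Most of the 5 calls were lost when any 1 systemic array was left out, and far fewer of all probe sets passed as well. UGT76C2 and UGT76E1 also did not pass without either dTLec control array. The differences of the 5 kept their sign whichever array was left out. They lay between −1.72 and −1.03 for UGT84A3, −1.14 and −0.70 for UGT71B1, and −0.73 and −0.46 for UGT76E1. For UGT76C2 they lay between −0.66 and −0.43, and for UGT85A2 between −0.56 and −0.41.

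The level of UGT85A2 (AT1G22360) followed the genotype rather than the leaf type. It gave 8.28 and 8.30 in wild-type control leaves, 8.28 and 8.26 in wild-type systemic leaves, 7.86 and 7.72 in dTLec control leaves, and 7.71 and 7.86 in dTLec systemic leaves. The 4 dTLec arrays did not overlap with the 4 wild-type arrays. The systemic responses were −0.02 ± 0.09 in the wild type and −0.01 ± 0.09 in dTLec. Averaged over both leaf types UGT85A2 was 1.41-fold lower in dTLec, a log2 difference of −0.50 ± 0.06 (n = 4 arrays of each genotype, adjusted p 0.0156 in limma). It was the single member past the threshold on this mean (2.17% of members, against 2.35% of all probe sets that were lower and 3.89% in either direction), and with the block its adjusted p was 0.0567. It did not pass without wild-type systemic replicate 1 (0.0578), wild-type systemic replicate 2 (0.0759), dTLec control replicate 2 (0.069) or dTLec systemic replicate 1 (0.0566). Its neighbour UGT85A5 differed by 0.07 in control leaves and 0.46 in systemic leaves.

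The other 35 members passed in none of the 7 comparisons. Their wild-type responses lay between −0.40 (UGT84A4) and 0.37 (UGT85A7) and their dTLec responses between −0.44 and 0.30, and 31 and 29 of the 35 were smaller than 0.25 in size. In the wild type UGT74F1 had 0.08, UGT71C5, whose enzyme makes the glucose ester of abscisate, 0.11, and UGT84B1, an auxin glucosyltransferase gene, 0.11. UGT78D2, the flavonoid 3-O-glucosyltransferase gene, had 0.14, and the monolignol glucosyltransferase genes UGT72E1, UGT72E2 and UGT72E3 had −0.13, −0.06 and 0.04. UGT88A1 lay between 10.81 and 11.01 on all 8 arrays, with −0.08 in the wild type and −0.06 in dTLec. Of all 46 members 28 had a mean below 5.85, the median of all probe set means, and 3 of the 9 called in the wild type did. UGT71C1, UGT73C1 and UGT76B1 were the dimmest, with means of 3.88, 4.01 and 3.84.

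The 46 members are not the whole family, and the gene table alone lists 58 UGT symbols. Genes such as UGT74F2, UGT75B1 and UGT85A1 are not among the members. Some UGT genes outside the rule were found under another symbol or on a shared probe set. GT72B1 (AT4G01070, synonym UGT72B1), which conjugates chlorinated pollutants, rose by 0.69 ± 0.16 in the wild type (limma adjusted p 0.0361, 0.0635 with the block), had 0.08 in dTLec, and was lower in dTLec systemic leaves by −0.75 ± 0.16 (0.0462, 0.098 with the block). UF3GT (UGT79B1, an anthocyanin xylosyltransferase gene), AT5G54010 (UGT79B6) and SGT (UGT80A2, a sterol glucosyltransferase gene) had wild-type responses of 0.14, 0.08 and −0.16 and did not pass. A probe set shared by UGT73B2 and UGT73B3 had 0.57 ± 0.21 in the wild type and 0.65 ± 0.21 in dTLec (adjusted p 0.139 and 0.192 in limma). Its genotype differences were −0.74 ± 0.21 in control leaves and −0.66 ± 0.21 in systemic leaves (adjusted p 0.385 and 0.117). The probe set shared by UGT89B1 and AT1G73885 had responses of −0.09 and −0.10, and that shared by UGT71D1 and AT2G29710 had 0.14 and −0.25, and none of the 3 passed in these comparisons.

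Genes that make UGT acceptors or conjugate in parallel were matched by symbol, and few were found. A gene without a match may still have a probe set, for example under a locus name, and its values were not looked up. Of 17 phenylpropanoid and sinapate genes 3 were matched. HCT, encoding a hydroxycinnamoyltransferase, rose by 0.70 ± 0.08 in the wild type (adjusted p 0.0036), ALDH2C4 (REF1), whose enzyme makes ferulate and sinapate, fell by 0.58 ± 0.13 (0.0336, 0.0676 with the block), and CCOAMT had −0.01 (limma). Of 13 flavonoid genes DFR was matched (0.02), and of 8 salicylate genes BSMT1 (0.88, limma adjusted p 0.0926). Of 8 auxin conjugation genes 3 were matched, of which GH3.3 rose (1.33). The fixed cytokinin, abscisate and jasmonate turnover genes had no match by symbol. Of 13 glutathione S-transferase genes, the other large conjugating family, 1 rose (GSTU15, 0.38 ± 0.09) and 2 fell (GSTU27, −1.04 ± 0.14, and GSTL3, −0.29 ± 0.07) in the wild type, with a median of 0.04. Over all probe sets 5.91% rose and 6.03% fell in the wild type, and 13 genes are too few to compare the families. With the block GSTU27 passed (adjusted p 0.0115), and GSTU15 and GSTL3 did not, at 0.108 and 0.165 (limma). None of these passed in dTLec, in control leaves or in the difference of responses, and in systemic leaves GSTU18 was lower in dTLec (−0.47 ± 0.07, adjusted p 0.0173 in limma, or 0.0788 with the block).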

How the data were processed

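The submitters hybridised 1 Affymetrix ATH1 array per sample. The authors deposited a single log2 value for each probe set and array. RMA and Partek are named in the submitters' processing notes, with versions, settings and roles not given in the sources used here. The log2 scale was read from the values, which run from 3.24 to 14.28. After leaving out 64 array controls, 22746 probe sets were fitted with limma 3.58.1 (lmFit, eBayes) in R 4.3.3, with 1 mean for each of the 4 groups. The residual degrees of freedom were 4, plus 3.124 from the prior. P-values are two-sided and were adjusted by Benjamini-Hochberg across the 22746 probe sets, with 0.05 as the threshold. Members, related genes and tests were chosen with earlier results of these data known. Named were members past the threshold in any comparison, the 3 highest and 3 lowest members in each comparison of groups, the 3 brightest and dimmest, and members of known substrate. Gene names come from the platform annotation, updated by gene identifier. Arrays have no read depth, and their number limits the precision.

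Deviations from the group means correlated between −0.579 and −0.132 in the 12 pairs of arrays with the same replicate number. Equal replicate means push such values below 0 on average, though not each pair. The correlations therefore do not show whether the numbers pair the samples, and the labels do not say. On simulated arrays with 200 probe sets changed by 1 log2 unit among 22746, the model recovered 79.5% in the wild-type response and 81% in the dTLec response. It recovered 88.5% in control leaves and 74% in systemic leaves, with 8 to 15 false calls in a run. All runs used the same spread for every group, independent noise and no removed replicate term. The percentages therefore differ by the random draw and are not the power of each real comparison. Alternatives were the replicate block, 2 other scalings, a filter on dim probe sets, only the arrays compared, another variance prior, other choices of probe set, and leaving out each array.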

Additional observations from a re-analysis of the deposited data

Results flagged for a closer look

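In 4 UGT genes both systemic arrays lay on one side of both control arrays in the wild type and on the opposite side in dTLec. The difference of the responses, dTLec minus wild type, was 0.256 for UGT73C7 (−0.11 in the wild type, 0.14 in dTLec), −0.163 for UGT74F1 (0.08 and −0.08), −0.279 for UGT78D2 (0.14 and −0.14) and −0.242 for UGT85A3 (0.17 and −0.08). The test of each difference did not pass, with limma adjusted p of 0.43, 0.601, 0.379 and 0.501. These 4 are 8.7% of members, and the same pattern was seen at 5.6% of all probe sets.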

How the results depend on the processing

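The count of UGT genes past the threshold changed by over 1.5 times with the replicate block in 2 comparisons, dTLec against wild type in systemic leaves (0 in place of 5) and over both leaf types (0 in place of 1). Whether the numbers pair the samples could not be settled from the labels or the values. The block took the wild-type count from 9 to 7 and the mean count from 10 to 9. Centring each array, cyclic loess, leaving out the dimmest 25% of probe sets, and a trended and robust prior kept each count within 1.5 times, as did fitting only the 4 arrays compared for the 4 comparisons of 2 groups. Each member had 1 probe set and none had the suffix of shared probes, so those alternatives changed nothing. With 1 array left out, the counts ran from 3 to 11 for the wild-type response, 0 to 6 for dTLec against wild type in systemic leaves, 5 to 11 for the mean response and 0 to 1 for the mean genotype difference, and stayed at 0 for the dTLec response, the difference of responses and control leaves. Of 336 refits of the 25 calls, 269 passed, 67 did not, and 0 changed sign. Of 3894 refits of values that had not passed, 15 passed, and in 199 the sign changed with neither value past the threshold. Calls over all probe sets also became fewer in most fits with 1 array left out, so fewer calls there are not particular to the family. In the comparisons where the count stayed at 0, few or no probe sets of the whole array passed in most of those fits. The family could then hardly have given another count. What makes single arrays decide these calls was not tested. With 2 arrays per group each spread rests on few values, and 28 of 46 members had a mean below the median probe set.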
